A study of Homo sapiens with 12 samples.

Results

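FOXO1, FOXO3, FOXO4, FOXN2 and FOXN3 are 5 genes for forkhead transcription factors, chosen by name from the 58288 genes of a count table. They were measured by RNA sequencing in HK2 cells, an immortalized line from human proximal tubule, the kidney segment that reclaims most of the filtered salt, glucose and amino acids. The study asked how loss of FLCN, the gene mutated in Birt-Hogg-Dubé syndrome, alters these cells early and after prolonged growth. The 4 groups were cells with a nontarget shRNA (shControl in the labels, with a wild-type genotype) or with an shRNA against FLCN, each collected at under 30 passages (short-term) or after 120 passages (long-term), and each group had 3 libraries labelled as biological replicates. The passage numbers are those of the labels, and the study's methods give a different long-term limit, counted after clonal selection. All groups were HK-2 cells grown in DMEM with fetal bovine serum. Total counts per library ran from 6284233 to 7279890 in the short-term nontarget group, from 5825779 to 8151168 in the short-term FLCN knockdown group, from 6262665 to 7592062 with long-term nontarget and from 6031734 to 8991051 with long-term knockdown of FLCN. The study describes clonal selection of the cells, and no source used here links a library to a clone, so the effects of clone, shRNA and lower FLCN cannot be told apart.

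FOXO proteins bind DNA through the winged-helix forkhead domain and switch on genes for cell cycle arrest, stress defense, metabolism and autophagy. When growth factors activate PI3K, the kinases AKT and SGK phosphorylate FOXO proteins, which then bind 14-3-3 proteins and leave the nucleus, so much of FOXO activity is set on the protein and is not read by mRNA levels. FOXN2 and FOXN3 belong to another forkhead branch, and FOXN3 (also called CHES1) is a repressor first described as a suppressor of DNA damage checkpoint defects in yeast.

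FLCN itself was read first, as a check of the labels. Its normalized CPM (counts scaled to a common library size) in replicates 1 to 3 were 12.7, 16.7 and 16.5 in the short-term nontarget libraries and 5.95, 6.58 and 5.66 in the short-term knockdown libraries. The values were 9.92, 11.9 and 12.2 in the long-term nontarget libraries and 6.70, 6.31 and 7.97 in the long-term knockdown libraries. Every knockdown library was lower than every nontarget library of its culture time. The log2 fold change was −1.33 (SE 0.179, adjusted p = 1.12e-04 in edgeR's quasi-likelihood test) short-term and −0.70 (SE 0.178, adjusted p = 0.00611, same test) long-term, and the difference between these effects did not pass the test (0.63, SE 0.254, adjusted p = 0.118 in edgeR's quasi-likelihood test). Of 9786 exon bases of FLCN, 1161 overlap the readthrough gene AC055811.2 on the same strand.

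Kidney and epithelial identity was checked with marker lists. Counts were found for 10 of 12 proximal tubule and renal markers, led by PAX8, with a summed level of 361 to 407 CPM in the short-term nontarget libraries, 476 to 516 in short-term knockdown, 441 to 521 in long-term nontarget and 477 to 560 in long-term knockdown. The sums hide opposite moves between the long-term groups: the mean of PAX8 fell from 251 to 164 CPM, while CDH16 rose from 18.6 to 50.8, MME from 38.1 to 85.8 and GGT1 from 36.3 to 65.5. The defining tubule genes LRP2 (megalin) and HNF4A had 0 counts. The tubule genes CUBN, SLC34A1, AQP1 and ANPEP had at most 6 counts in any library and were not tested, so 6 of the 12 markers were tested. The 5 epithelial markers, led by KRT8, summed to 2260 to 2494, 2704 to 3562, 2799 to 3137 and 2158 to 3035 CPM in the same order of groups. Between the long-term groups KRT7 fell from a mean of 13.96 to 5.26 CPM, EPCAM from 31.0 to 20.7 CPM and CDH1 from 16 to 0 counts in all. Of 4 tested, edgeR called KRT7 and EPCAM lower, beside 15.8% of all tested genes. The EPCAM call (−0.59) was lost without long-term nontarget replicate 1 (−0.55) or 2 (−0.53) or long-term knockdown replicate 1 (−0.55) or 2 (−0.54). The 4 fibroblast markers summed to 49.2 to 50.4, 52.0 to 56.8, 24.6 to 31.7 and 26.5 to 36.5 CPM. Within the fibroblast sum the genes moved apart between long-term nontarget and knockdown: LUM rose from a mean of 0.960 to 12.1 CPM (3.69, adjusted p = 1.90e-06 in edgeR's quasi-likelihood test) and PDGFRB fell from 7.41 to 0.658 CPM (−3.56, adjusted p = 1.00e-05, same test). In short-term nontarget and knockdown cells the means were 23.5 and 23.1 CPM for LUM and 3.99 and 2.19 CPM for PDGFRB. LUM was thus lower in both long-term groups than in either short-term group. For other cell types, PTPRC, CD3E and HBB had 0 counts, the leukocyte gene CD68 and the erythroid gene HBA1 had at most 2 counts in a library, and the 3 endothelial genes together, led by VWF, at most 17. The part of these differences in the results for the forkhead genes was not tested.

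Among the 5 genes, FOXO3 was lower with FLCN knockdown at both culture times, FOXO4 and FOXN2 were higher with long-term knockdown, FOXN3 was lower with long culture and lower again with long-term knockdown, and FOXO1 passed no test. A gene was called at a Benjamini-Hochberg adjusted p below 0.05 over 13959 tested genes, in a model of all 12 libraries. In short-term knockdown 1 of 5 was called, FOXO3, and it was lower; 4.71% of all tested genes were called lower and 5.62% higher. In long-term knockdown 4 of 5 were called, FOXO4 and FOXN2 as higher and FOXO3 and FOXN3 as lower, where 13.7% of all tested genes were called higher and 15.8% lower. In long-term against short-term nontarget cells FOXN3 alone was called, and as lower, beside 4.38% of tested genes called lower and 3.17% higher. In long-term against short-term knockdown cells FOXN3 was again the 1 gene called, as lower, beside 15.2% called lower and 11.5% higher.

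The interaction, which is the log2 effect of long-term knockdown minus that of short-term knockdown, was called for FOXN3 with a negative value, and over all tested genes 8.43% were called negative and 4.98% positive. With a further limit of a 2.5-fold change, which the study applied to its knockdown comparisons, edgeR and DESeq2 each called 0 of the 5 genes in short-term knockdown (0 also at an unadjusted p below 0.05), beside 1.79% of tested genes in edgeR. Under that limit FOXN3 was called in long-term knockdown (background 6.61%), in long-term against short-term knockdown cells (background 6.25%) and in the interaction (background 5.44%), but not in long-term against short-term nontarget cells, where edgeR and DESeq2 called 0 of 5, 0 of 5 passed at an unadjusted p below 0.05 with that fold, and the background was 1.88%. Across the 5 genes the middle log2 value was 0.31 in short-term and 0.55 in long-term knockdown, both that of FOXN2. Over all tested genes the medians were −0.000069 and 0.00095. The 5 long-term values were −1.55 (FOXN3), −0.94 (FOXO3), 0.55 (FOXN2), 0.61 (FOXO4) and 0.78 (FOXO1, not called). FOXO1 passed the filter on low counts, set at 1.46 CPM in at least 3 libraries, through the long-term knockdown group. It had 3 libraries at or above that level there and 1 in short-term knockdown. The other 4 genes lay above that level in all 12 libraries. Without FOXO1 the long-term middle would lie between −0.94 and 0.55. The long-term contrast with all tested genes thus depends on the filter, and no shared shift of the 5 genes is read from it. The comparisons are not independent of each other: each culture comparison shares its libraries with the knockdown comparisons, and the interaction uses all 12.

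**Figure D1:**
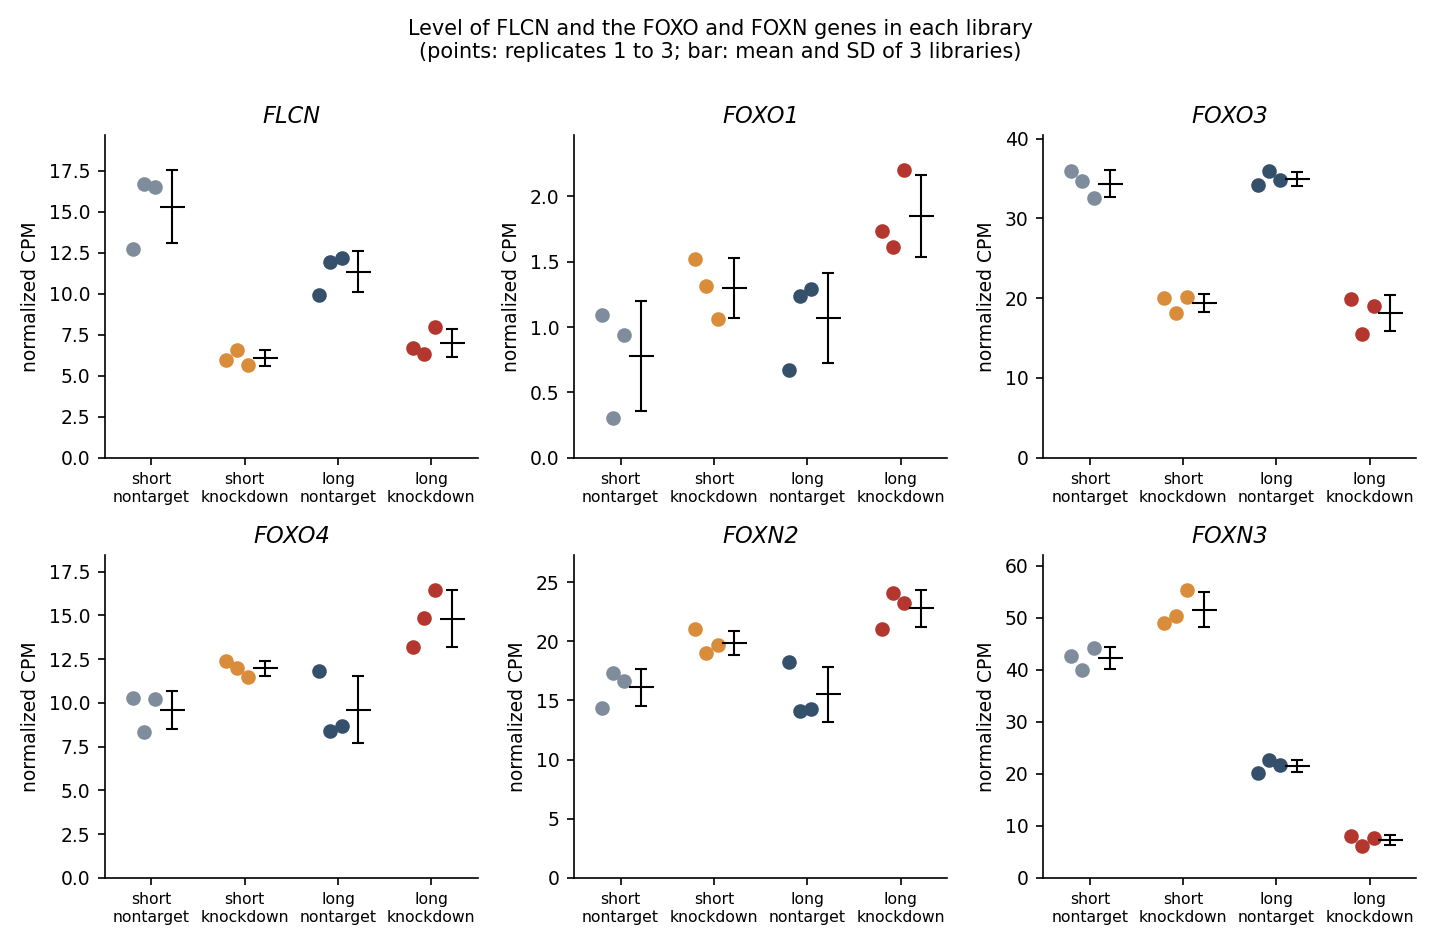
Normalized CPM of FLCN and the 5 forkhead genes in each library, with 1 point per replicate and a bar at the mean ± SD of 3 replicates in each of the 4 groups. FOXO3 falls from 34.4 to 19.4 CPM with short-term knockdown and from 35.0 to 18.1 with long-term knockdown, and FOXN3 is lowest in long-term knockdown, at 7.29 CPM.

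**Figure D2:**
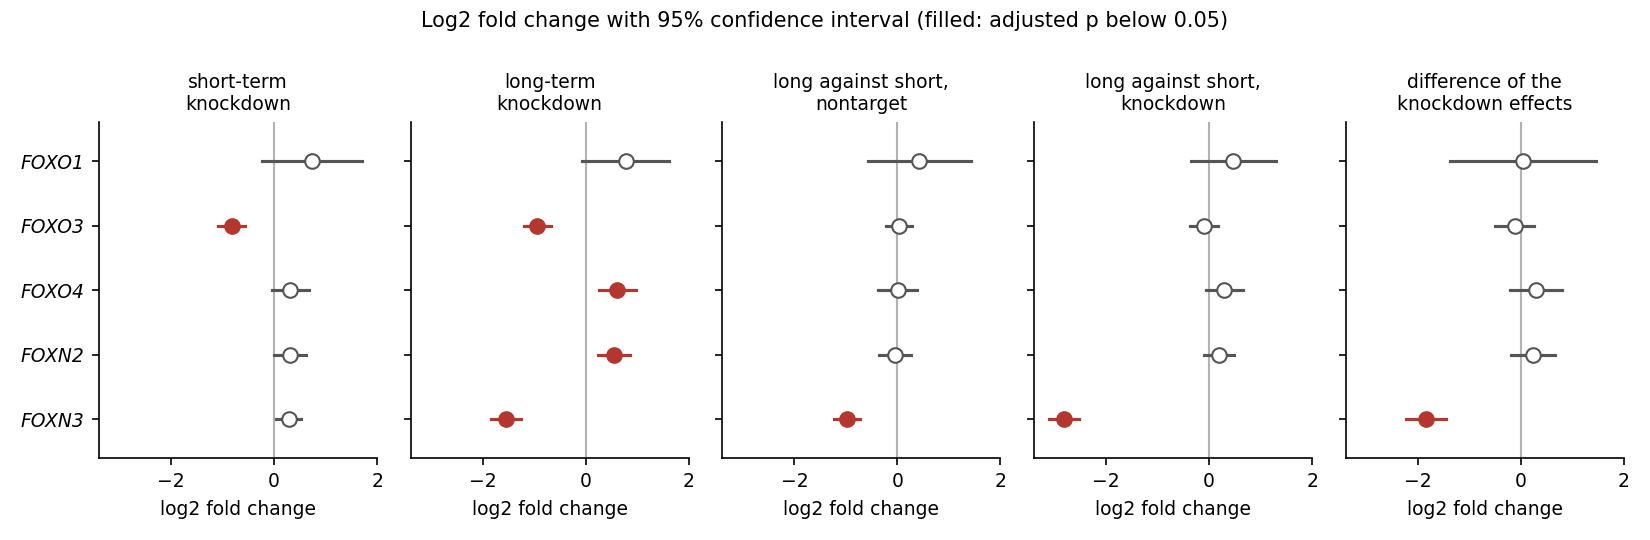
Log2 fold change of each gene in the 5 comparisons, with bars for the 95% confidence interval of the edgeR fit; filled red points were called at an adjusted p below 0.05. FOXO3 is to the left of 0 in both knockdown comparisons, and FOXN3 in the 4 comparisons other than short-term knockdown.

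RefSeq promoter entries on GRCh38.p14 were found for 4 of the 5 genes and none for FOXN2. FOXO3 has 4 entries, of which the one nearest to the gene start in GENCODE is used and the other 3 were not read, and the other genes have 1 each. The 250 bases before the RefSeq start are shown for FOXO3 (chr6:108559575-108559824, plus strand) and FOXO4 (chrX:71095601-71095850, plus strand), since these sister genes moved in opposite directions, and for FOXN3 (chr14:89619166-89619415, minus strand), whose interaction was called. Capitals mark matches to GGGCGG, the GC box letters, on either strand.
FOXO3: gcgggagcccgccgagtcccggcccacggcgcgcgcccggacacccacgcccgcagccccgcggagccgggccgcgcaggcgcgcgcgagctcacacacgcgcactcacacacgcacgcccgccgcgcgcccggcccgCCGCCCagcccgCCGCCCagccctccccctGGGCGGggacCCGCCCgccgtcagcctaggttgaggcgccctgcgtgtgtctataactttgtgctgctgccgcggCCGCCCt
FOXO4: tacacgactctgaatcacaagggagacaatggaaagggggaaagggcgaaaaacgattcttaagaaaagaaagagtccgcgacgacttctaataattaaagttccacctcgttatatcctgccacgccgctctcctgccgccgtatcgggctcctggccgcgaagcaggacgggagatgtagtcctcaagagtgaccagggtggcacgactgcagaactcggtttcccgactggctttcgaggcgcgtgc
FOXN3: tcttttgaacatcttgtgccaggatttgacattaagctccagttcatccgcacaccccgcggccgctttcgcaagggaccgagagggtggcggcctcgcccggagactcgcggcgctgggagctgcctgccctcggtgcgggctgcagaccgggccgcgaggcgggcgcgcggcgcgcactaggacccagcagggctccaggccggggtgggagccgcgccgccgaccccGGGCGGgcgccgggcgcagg
GC content was 80.4% in the FOXO3 window, 54.4% in the FOXO4 window and 73.6% in the FOXN3 window, against a median of 58% over 35114 promoter windows of the same length. The FOXO3 window held 5 matches to GGGCGG, the FOXN3 window 1 and the FOXO4 window 0, and 42.6% of all windows held at least 1. The FOXO1 window (chr13:40666642-40666891, minus strand), with 67.2% GC, held 4 matches to GGGCGG and 1 to CCAAT, which 32% of all windows hold. Searched on both strands, GTAAACA, the core bound by FOXO proteins (in 2.98% of all windows), and CACGTG, the E-box (in 6.35%), were not found in these 4 windows. The RefSeq start of FOXO4 used here lies 346 bases from the start in GENCODE, and those of FOXO3 and FOXN3 lie 10 and 16 bases from it. A match is a description of letters and says nothing of binding in HK2 cells.

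FOXO3 (ENSG00000118689.14, chromosome 6, 108559835 to 108684774, plus strand), which drives genes of stress resistance and cell death, was lower with FLCN knockdown at both culture times. Its level in replicates 1 to 3 was 35.9, 34.6 and 32.5 CPM in the short-term nontarget libraries and 20.0, 18.1 and 20.2 CPM in the short-term knockdown libraries. In long-term culture the libraries read 34.2, 35.9 and 34.8 CPM with the nontarget shRNA and 19.9, 15.6 and 19.0 CPM with FLCN knockdown. The 6 knockdown libraries all lay below the 6 nontarget libraries, and within each shRNA the culture times overlapped. Group means (± SD, n = 3) were 34.4 ± 1.73, 19.4 ± 1.13, 35.0 ± 0.889 and 18.1 ± 2.28 CPM in the order short-term nontarget, short-term knockdown, long-term nontarget, long-term knockdown. The log2 fold change with short-term knockdown was −0.82 (SE 0.125, adjusted p = 3.32e-04 in edgeR's quasi-likelihood test), so that FOXO3 fell by 43.5%. With long-term knockdown it was −0.94 (SE 0.125, adjusted p = 1.83e-05 in edgeR's quasi-likelihood test), and FOXO3 fell by 48.0%. In bulk RNA, fewer cells that express a gene and less RNA of it per cell cannot be told apart.

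Culture time had no detected effect on FOXO3 at either FLCN status. Its log2 fold change was 0.02 (95% interval −0.23 to 0.28, adjusted p = 0.951 in edgeR's quasi-likelihood test) in long-term against short-term nontarget cells and −0.10 (−0.37 to 0.18, adjusted p = 0.639, same test) in long-term against short-term knockdown cells. The interaction was −0.12 (95% interval −0.49 to 0.25, adjusted p = 0.727, same test), so a difference between the early and late effect was not detected and the interval sets its size. A near copy, FOXO3B on chromosome 17, had 24, 24, 35 and 39 counts summed over the libraries of the groups in the order above, and was not called in any of the 5 comparisons by edgeR. With the counts of both genes summed before the fit, the log2 fold change was −0.79 short-term and −0.87 long-term. Of the 40 tested genes nearest to FOXO3 on chromosome 6, 1 had a lower log2 fold change short-term and 2 had a lower one long-term, and the medians of these neighbours were −0.09 and 0.12.

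FOXO4 (ENSG00000184481.16, chromosome X, 71096197 to 71103535, plus strand), which shares DNA sites and AKT control with FOXO3, had its highest levels in the long-term knockdown libraries. Short-term it read 10.3, 8.35 and 10.2 CPM in nontarget and 12.4, 11.99 and 11.5 CPM in knockdown libraries. Long-term it read 11.8, 8.36 and 8.67 CPM in nontarget and 13.2, 14.8 and 16.5 CPM in knockdown libraries. At each culture time the knockdown libraries lay above the nontarget libraries without overlap, and the 2 nontarget groups overlapped each other. Group means were 9.61 ± 1.09, 11.96 ± 0.449, 9.61 ± 1.90 and 14.8 ± 1.64 CPM (SD, n = 3). The log2 fold change with long-term knockdown was 0.61 (SE 0.169, adjusted p = 0.0105 in edgeR's quasi-likelihood test), an increase of 53.0%. Without long-term nontarget replicate 2 it was 0.52 and the call was lost (adjusted p = 0.0545 in edgeR's quasi-likelihood test), in a range of 0.00329 to 0.0545 over the 12 libraries left out in turn. With short-term knockdown it was 0.32 (SE 0.174, adjusted p = 0.300 in edgeR's quasi-likelihood test), which did not pass, and the interaction did not either (0.30, SE 0.243, adjusted p = 0.490, same test). Long-term against short-term culture gave 0.0025 (adjusted p = 0.997 in edgeR's quasi-likelihood test) in nontarget and 0.30 (adjusted p = 0.206, same test) in knockdown cells. Of its 40 nearest tested genes, 38 had a lower log2 fold change than FOXO4 in each knockdown comparison, around medians of −0.09 and 0.08.

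FOXO1 (ENSG00000150907.7, chromosome 13, 40469953 to 40666597, minus strand), the FOXO factor best known for insulin-controlled metabolism in liver, was near the floor of detection. The raw counts in replicates 1 to 3 were 8, 2 and 6 in short-term nontarget, 12, 9 and 6 in short-term knockdown, 5, 8 and 10 in long-term nontarget and 15, 11 and 13 in long-term knockdown libraries, 105 in all. The short-term groups overlapped, and the long-term knockdown libraries lay above the long-term nontarget ones. The log2 fold change was 0.73 (95% interval −0.24 to 1.70, adjusted p = 0.381 in edgeR's quasi-likelihood test) short-term and 0.78 (−0.07 to 1.62, adjusted p = 0.166, same test) long-term. These intervals include 0, so a difference was not detectable at this depth. The culture comparisons gave 0.42 (adjusted p = 0.709 in edgeR's quasi-likelihood test) in nontarget and 0.47 (adjusted p = 0.414, same test) in knockdown cells, and the interaction 0.05 (SE 0.670, adjusted p = 0.974, same test).

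Levels of different genes were compared as CPM per kilobase of merged exons, a scale that treats all annotated exons as present. On that scale FOXO3 was the most abundant of the 5 genes in both nontarget groups, with a mean of 4.45 ± 0.224 short-term and 4.53 long-term, and FOXO1 was the least abundant in every group, at 0.125 to 0.297. In short-term nontarget cells the order after FOXO3 was FOXN3 (3.83), FOXN2 (2.94), FOXO4 (2.79) and FOXO1. In short-term knockdown cells it ran from FOXN3 (4.68) through FOXN2 (3.63), FOXO4 (3.47) and FOXO3 (2.52) to FOXO1. FOXN2 and FOXO4 overlapped over their replicates in each of the 4 groups, so their order is within the spread. In long-term nontarget cells FOXO3 was followed by FOXN2 (2.83), FOXO4 (2.79), FOXN3 (1.95) and FOXO1. In long-term knockdown cells FOXO4 (4.30) and FOXN2 (4.16) led, then FOXO3 (2.35), FOXN3 (0.661) and FOXO1 (0.297).

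Per kilobase of exon, the order of FOXO3 and FOXO4 was opposite with and without FLCN knockdown. In CPM without this scaling FOXO3 was above FOXO4 in all 12 libraries, so the change of order depends on the exon lengths used, 7721 and 3447 bases. As a share of the summed CPM per kilobase of FOXO1, FOXO3 and FOXO4, FOXO3 made up 59.7%, 64.5% and 57.5% in the short-term nontarget libraries and 40.3%, 38.9% and 42.7% in the short-term knockdown libraries. In the long-term libraries its share was 55.6%, 63.9% and 62.3% with the nontarget shRNA and 38.6%, 30.6% and 32.4% with knockdown. FOXO3 was the larger part in each of the 6 nontarget libraries and FOXO4 in each of the 6 knockdown libraries. The ratio of FOXO4 to FOXO3 per kilobase was 0.627 ± 0.0821 and 1.38 ± 0.102 in short-term nontarget and knockdown cells, and 0.617 ± 0.136 and 1.85 ± 0.333 in the long-term groups (mean ± SD, n = 3). The sum of the 3 genes was 7.36 ± 0.426, 6.20 ± 0.207, 7.49 ± 0.405 and 6.94 ± 0.558 CPM per kilobase in the order of groups above, with overlap between the long-term groups and none between the short-term groups. No test was run on the shares.

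**Figure D3:**
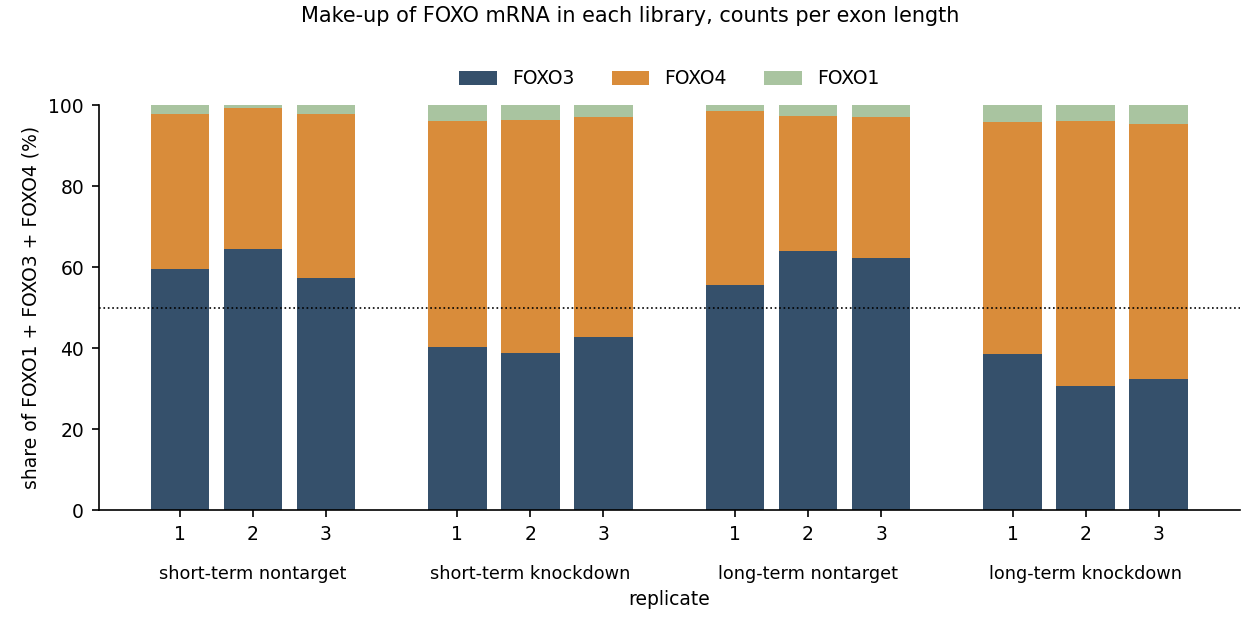
Share of FOXO3, FOXO4 and FOXO1 in their summed CPM per kilobase of exon, in percent, with 1 stacked bar per library and a dotted line at 50%. FOXO3 lies above that line in all 6 nontarget libraries, at 55.6% or more, and below it in all 6 knockdown libraries, at 42.7% or less.

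FOXN2 (ENSG00000170802.15, chromosome 2, 48314637 to 48379294, plus strand), a forkhead factor first described as binding a retroviral long terminal repeat, was, like FOXO4, highest in long-term knockdown. Its level was 14.4, 17.3 and 16.7 CPM in short-term nontarget and 21.0, 19.0 and 19.6 CPM in short-term knockdown libraries. Long-term it was 18.2, 14.1 and 14.2 CPM in nontarget and 21.0, 24.1 and 23.2 CPM in knockdown libraries. Knockdown and nontarget libraries did not overlap at either culture time. Group means were 16.1 ± 1.55, 19.9 ± 1.02, 15.5 ± 2.35 and 22.8 ± 1.57 CPM (SD, n = 3). The log2 fold change was 0.55 (SE 0.143, adjusted p = 0.00723 in edgeR's quasi-likelihood test) long-term, an increase of 46.3%, and 0.31 (SE 0.145, adjusted p = 0.214, same test) short-term, which did not pass. The interaction was 0.24 (95% interval −0.19 to 0.67, adjusted p = 0.502 in edgeR's quasi-likelihood test), and the culture comparisons gave −0.05 (adjusted p = 0.914, same test) in nontarget and 0.19 (adjusted p = 0.347, same test) in knockdown cells.

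The genes around FOXN2 were shifted in the same direction as FOXN2 itself. The median log2 fold change of its 40 nearest tested genes, which span 12.6 Mb, was 0.25 short-term and 0.45 long-term. Of them 20 were called higher and 2 lower in long-term knockdown, beside 13.7% and 15.8% of all tested genes. In short-term knockdown 6 were called higher and 0 lower, beside 5.62% and 4.71% of all tested genes. Over the 931 tested genes of chromosome 2 the medians were 0.31 and 0.19. FOXN2 had a higher log2 fold change than 26 of its 40 neighbours short-term and than 23 long-term, near the middle of them. What the level of this region contributes to the FOXN2 difference was not tested.

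FOXN3 (ENSG00000053254.15, chromosome 14, 89124871 to 89619149, minus strand), the checkpoint-linked repressor, had the widest range of the 5 genes. Raw counts in replicates 1 to 3 were 312, 263 and 281 in short-term nontarget, 388, 344 and 313 in short-term knockdown, 151, 146 and 167 in long-term nontarget and 70, 42 and 45 in long-term knockdown libraries. In CPM the short-term libraries read 42.6, 39.9 and 44.1 with nontarget and 49.1, 50.3 and 55.4 with knockdown, and the long-term libraries 20.2, 22.6 and 21.6 with nontarget and 8.09, 6.16 and 7.63 with knockdown. The 4 groups did not overlap, and ran in the order short-term knockdown, short-term nontarget, long-term nontarget, long-term knockdown. Group means in that order were 51.6 ± 3.34, 42.2 ± 2.13, 21.5 ± 1.19 and 7.29 ± 1.01 CPM (SD, n = 3).

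In nontarget cells the log2 fold change of FOXN3 with long culture was −0.98 (SE 0.121, adjusted p = 5.85e-05 in edgeR's quasi-likelihood test), so FOXN3 fell by 49.2%. Long-term knockdown gave a further −1.55 (SE 0.141, adjusted p = 2.79e-07 in edgeR's quasi-likelihood test) against long-term nontarget cells. From short-term to long-term knockdown cells the log2 fold change was −2.81 (SE 0.136, adjusted p = 1.60e-10, same test), so FOXN3 fell by 85.8%. In short-term knockdown the value was 0.29 (SE 0.115, adjusted p = 0.138 in edgeR's quasi-likelihood test) and did not pass. The interaction was −1.84 (95% interval −2.22 to −1.45, adjusted p = 2.50e-06 in edgeR's quasi-likelihood test), so the long-term effect of knockdown on FOXN3 was more negative than the short-term effect.

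The genes around FOXN3 shifted in the same direction in long culture, with medians of smaller size. Of its 40 nearest tested genes 17 were called lower in long-term knockdown, 12 in long-term against short-term nontarget cells, 28 in long-term against short-term knockdown cells and 13 in the interaction. Over all tested genes 15.8%, 4.38%, 15.2% and 8.43% were called lower in the same order, and 0 of the 40 neighbours were called higher in any of these. Over these 40 genes, which span 8.75 Mb, the median log2 fold change was −0.11 in short-term knockdown, −0.25 in long-term knockdown, −0.39 in long-term against short-term nontarget cells and −0.49 in long-term against short-term knockdown cells. The medians over the 472 tested genes of chromosome 14 were −0.06, −0.18, −0.34 and −0.46 in the same comparisons. In these comparisons 37, 6, 3 and 6 of the 40 neighbours had a lower log2 fold change than FOXN3, so neighbours with a lower value than FOXN3 were few in long culture. In the interaction the neighbours had a median of −0.13, with 4 of 40 below FOXN3. The contribution of the chromosome-wide level to the FOXN3 difference was not tested.

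**Figure D4:**
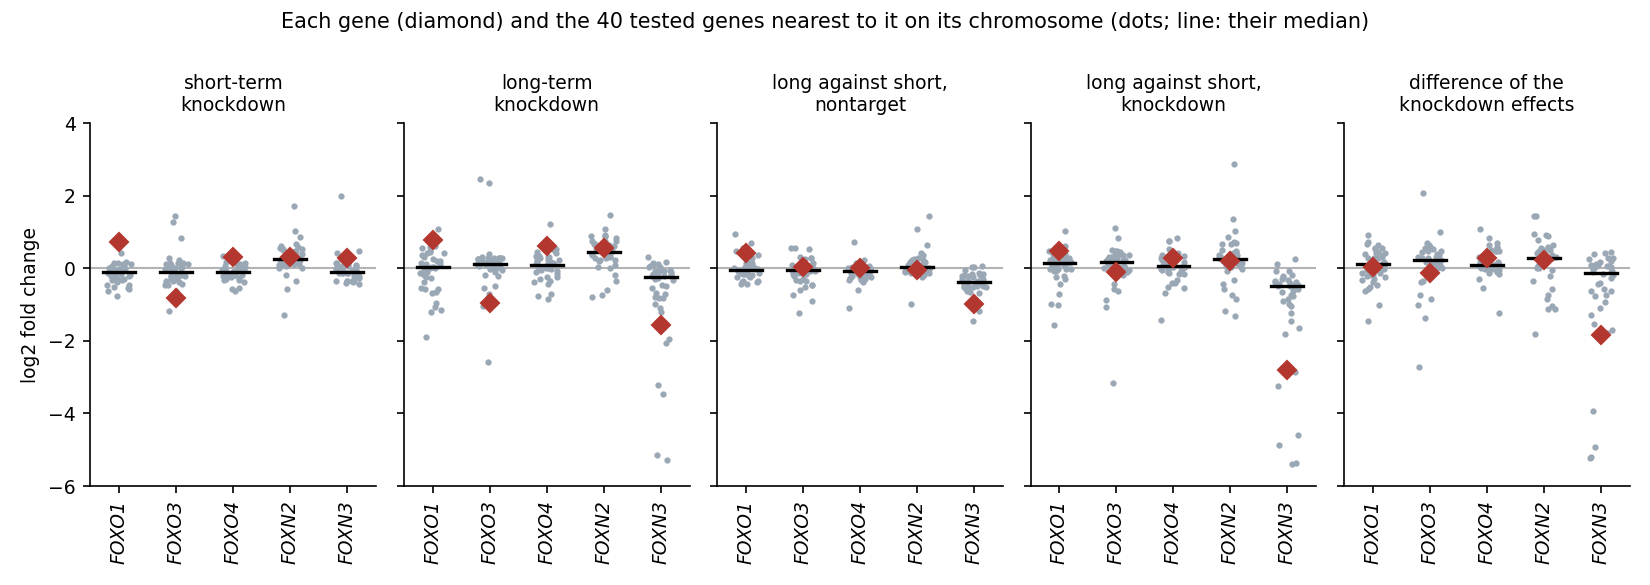
Log2 fold change of each of the 5 genes (diamond) and of the 40 tested genes nearest to it on its chromosome (dots, with a line at their median) in the 5 comparisons. FOXO3 sits below nearly all of its neighbours in both knockdown comparisons, FOXN2 lies among its neighbours, whose long-term median is 0.45, and FOXN3 lies near the bottom of its neighbours in long-term knockdown.

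Transcripts within the FOXN3 locus were read separately. FOXN3-AS1, an antisense RNA inside a FOXN3 intron with 0 bases of exon overlap, had 85, 76, 33 and 8 counts summed over the libraries of short-term nontarget, short-term knockdown, long-term nontarget and long-term knockdown. Its log2 fold change was −1.95 (adjusted p = 0.0221 in edgeR's quasi-likelihood test) in long-term knockdown and −1.45 (adjusted p = 0.0318, same test) in long-term against short-term nontarget cells. The first call was lost without long-term nontarget replicate 1 (−1.84) or 3 (−1.73) or long-term knockdown replicate 1 (−1.25), and the other without short-term nontarget replicate 1 (−1.34) or 2 (−1.39) or long-term nontarget replicate 1 (−1.57) or 2 (−1.18). In long-term against short-term knockdown cells it was lower (−3.24, adjusted p = 1.89e-04 in edgeR's quasi-likelihood test). Its interaction did not pass (adjusted p = 0.112 in edgeR's quasi-likelihood test). AL138478.1, whose 832 bases all lie opposite FOXN3 exons, had 39, 55, 26 and 2 counts in the same order of groups. It was called lower in long-term knockdown (adjusted p = 0.00123 in edgeR's quasi-likelihood test), in long-term against short-term knockdown cells (adjusted p = 2.40e-05, same test) and in the interaction (adjusted p = 0.00267, same test), and no fold is given against a group with 2 counts. The strand setting of the read counting is not given, so antisense counts at shared exon bases may include FOXN3 reads.

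The remaining FOXO and FOXN genes were scarce. FOXO6 had 14, 25, 13 and 12 counts summed over the libraries of the groups, in the order of FOXN3-AS1 above, and was not tested. FOXN1, FOXN4 and the FOXO1 copy FOXO1B had 0 counts in all 12 libraries. FOXM1, the forkhead activator of mitotic genes, had 18182 counts and log2 fold changes of 0.04 short-term and −0.09 long-term, neither of them called by edgeR.

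Of 49 protein-coding forkhead genes, 37 had counts and 24 were tested. In short-term knockdown 4 of the 24 were called, all lower: FOXO3, FOXA3, FOXL1 and FOXJ1, where 5.62% of all tested genes were called higher and 4.71% lower. FOXA3 passed the low-count filter through the 3 short-term nontarget libraries alone, and FOXJ1 through these and 2 long-term nontarget libraries, so the short-term calls of both are not independent of the filter. That count of 4 fell to 1 or 2 without any of short-term nontarget replicates 1, 2 and 3 or short-term knockdown replicates 1 and 2, and DESeq2 called 2. The FOXL1 call was lost without any 1 of the 6 short-term libraries (−1.22 to −1.12). That of FOXA3 was lost in DESeq2 (−1.61) and without short-term nontarget replicate 2 (−1.51) or short-term knockdown replicate 1 (−1.40). That of FOXJ1 was lost in DESeq2 (−1.32), with no filter on low counts (−1.32) and without any short-term nontarget library (−1.24, −1.36 and −1.34), short-term knockdown replicate 1 (−1.10) or 2 (−1.31) or long-term nontarget replicate 2 (−1.32). In long-term knockdown 5 were called higher and 7 lower, beside 13.7% and 15.8% of all tested genes, and the median over the 24 genes was −0.28, against 0.00095 over all tested genes. Beside the 4 genes of the FOXO and FOXN branches, FOXA3 (−2.39, adjusted p = 0.00494 in edgeR's quasi-likelihood test), an endoderm factor, and FOXL1 (−1.50, adjusted p = 0.00309, same test) were lower, each with no overlap between knockdown and nontarget libraries. Both rested on few counts: FOXA3 had 23 and 4 counts in the long-term nontarget and knockdown groups, and FOXL1 95 and 32. FOXL2, with 20 and 69 counts, is among the 5 called higher, but it passed the low-count filter through the 3 long-term knockdown libraries alone, so its call is not independent of the filter. FOXP1 and FOXK2 were also called higher, and FOXE1, FOXJ1 and FOXS1 lower; FOXP1, FOXK2 and FOXE1 are named after their values were seen, and the others by the rule. The FOXJ1 call (−1.49) was lost in DESeq2 (−1.51) and without long-term nontarget replicate 2 (−1.46) or 3 (−1.19) or long-term knockdown replicate 1 (−1.18) or 3 (−1.43), and the FOXS1 call (−1.25) without long-term nontarget replicate 3 (−0.93) or long-term knockdown replicate 1 (−1.16).

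Listed target genes of FOXO factors were called in both directions. Of 37 listed targets, 30 were tested. This list and those of FOXO regulators and FOXN3 partners below were chosen with earlier results of these data known. A share called in a list or role therefore cannot be read as an excess over all tested genes. In short-term knockdown 8 were called higher and 2 lower (33.3%), with a median log2 fold change of 0.09, and in long-term knockdown 7 were called higher and 7 lower (46.7%), with a median of 0.01. Over all tested genes 5.62% were called higher and 4.71% lower short-term, and 13.7% and 15.8% long-term, with medians of −0.000069 and 0.00095. FBXO32, the muscle atrophy ubiquitin ligase also called atrogin-1, read 8.47, 8.81 and 5.18 CPM in short-term nontarget and 36.4, 42.4 and 25.3 CPM in short-term knockdown libraries. In the long-term libraries it read 9.78, 11.3 and 11.8 CPM with nontarget and 76.8, 80.0 and 79.9 CPM with knockdown. Every knockdown library was above every nontarget library, and the log2 fold change was 2.21 (adjusted p = 2.23e-06 in edgeR's quasi-likelihood test) short-term and 2.85 (adjusted p = 5.04e-09, same test) long-term. The other tested targets of autophagy and protein breakdown, 7 with FBXO32, were called higher for BNIP3 short-term and lower long-term for the mitophagy kinase PINK1 (−1.09, adjusted p = 7.52e-06 in edgeR's quasi-likelihood test) and MAP1LC3B, which encodes LC3B (−0.54, adjusted p = 1.33e-04, same test). The BNIP3 call (0.49) was lost without short-term nontarget replicate 3 (0.42) or short-term knockdown replicate 1 (0.44) or 2 (0.44).

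Among 7 tested cell cycle targets, 1 was called short-term and 3 long-term (14.3% and 42.9%, beside 10.3% and 29.5% of all tested genes). CCND1, the G1 cyclin that FOXO factors repress, was higher in short-term knockdown (0.61, adjusted p = 6.18e-04 in edgeR's quasi-likelihood test) and lower in long-term knockdown (−5.38, adjusted p = 4.79e-14, same test), with means of 118, 180, 145 and 3.49 CPM and an interaction of −5.99 (adjusted p = 4.20e-13, same test). CDKN1A, the cell cycle inhibitor p21, was lower in long-term knockdown (−1.56, adjusted p = 9.80e-06 in edgeR's quasi-likelihood test), with means of 81.7, 80.7, 76.0 and 25.7 CPM. Long-term libraries of the 2 shRNAs did not overlap for either gene. CDKN2B was higher long-term (0.61), a call that was lost without long-term nontarget replicate 2 (0.47) or long-term knockdown replicate 2 (0.57) or 3 (0.50).

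Of 7 tested stress genes and 4 cell death genes, TXNIP, an inhibitor of thioredoxin and glucose uptake, was higher at both culture times (0.97, adjusted p = 7.44e-05, and 1.25, adjusted p = 5.24e-07, in edgeR's quasi-likelihood test), with means of 19.4, 38.0, 21.9 and 52.1 CPM and no overlap. BCL2L11, which encodes the death factor BIM, was higher short-term (0.66, adjusted p = 0.00790 in edgeR's quasi-likelihood test). SESN3, a stress-induced inhibitor of mTORC1, read a mean of 2.83 CPM in short-term nontarget and 0.743 in short-term knockdown libraries and was called lower, but it passed the low-count filter only with the short-term nontarget libraries counted, so its call is not independent of the filter. Long-term, the catalase gene CAT (0.37) and the superoxide dismutase gene SOD2 (−0.33) were called in opposite directions, and the death ligand gene TNFSF10 higher (0.82). The call was lost for CAT in DESeq2 (0.37), with no filter on low counts (0.38), with the 2 groups alone (0.37) and without nontarget replicate 2 (0.31) or 3 (0.38) or knockdown replicate 1 (0.32) or 2 (0.37), for SOD2 without knockdown replicate 3 (−0.26), and for TNFSF10 without nontarget replicate 1 (0.83) or 3 (0.70) or knockdown replicate 1 (0.76) or 2 (0.67).

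Of 5 tested targets in metabolism and insulin signaling, 4 were called at each culture time, beside 10.3% of all tested genes short-term and 29.5% long-term. The list was chosen with earlier results known, and the study reports PPARGC1A as upregulated, so these shares do not test for an excess. PPARGC1A, the coactivator of mitochondrial genes, and IRS2, the insulin receptor substrate, were higher at both times: 0.73 and 1.46 for PPARGC1A and 1.03 and 1.04 for IRS2, with no overlap. The short-term PPARGC1A call was lost without short-term nontarget replicate 1 (0.67) or 2 (0.60), and that of IRS2 with no filter on low counts (1.02). ERBB3 was lower long-term (−2.81, adjusted p = 8.71e-07 in edgeR's quasi-likelihood test) and INSR, the insulin receptor gene, was called lower at both times (−0.73 and −0.47). The INSR call was lost short-term without short-term nontarget replicate 1 (−0.72) or 3 (−0.64) or short-term knockdown replicate 1 (−0.63). It was lost long-term in DESeq2 (−0.47), with no filter on low counts (−0.47), with the 2 groups alone (−0.47) and without short-term nontarget replicate 1 (−0.47), long-term nontarget replicate 3 (−0.36) or long-term knockdown replicate 2 (−0.44) or 3 (−0.44). ERBB3 was called higher short-term (0.89), which was lost without nontarget replicate 1 (0.72) or 2 (0.90) or knockdown replicate 1 (0.84) or 2 (0.80) and in DESeq2.

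**Figure D5:**
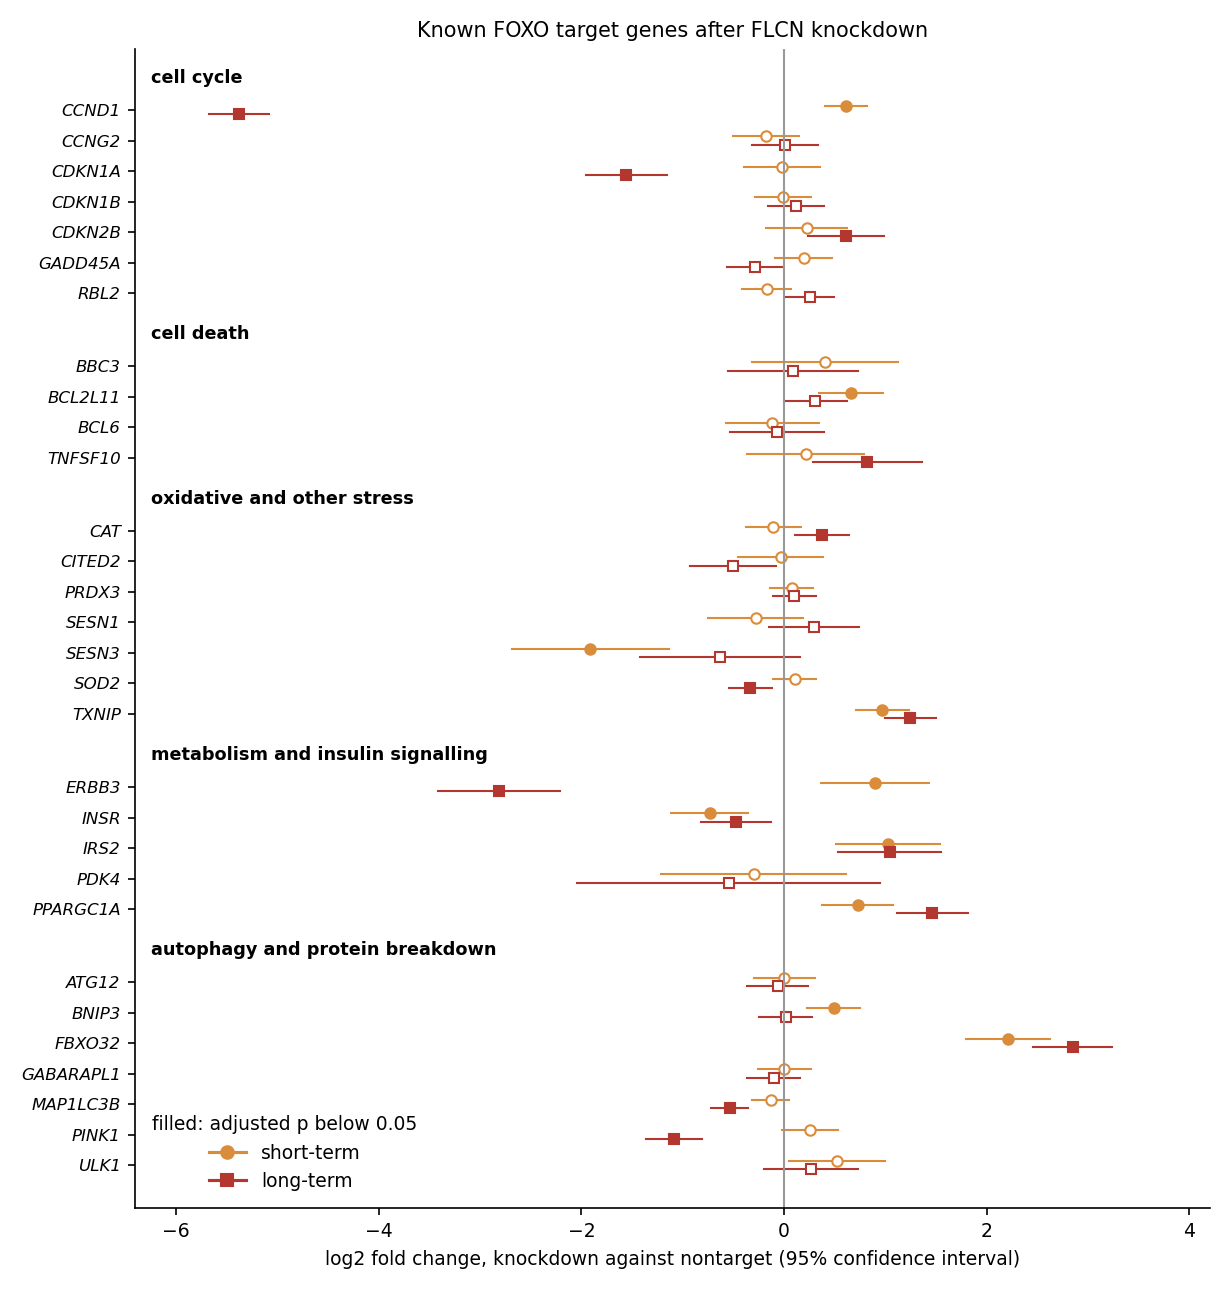
Log2 fold change of the 30 tested FOXO target genes, grouped by 5 roles, in short-term (circles) and long-term (squares) knockdown; filled symbols were called at an adjusted p below 0.05. FBXO32 and TXNIP lie to the right at both times, and CCND1 lies to the right short-term and at −5.38 long-term.

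All 41 listed regulators of FOXO proteins were tested. In short-term knockdown 6 were called higher and 1 lower (17.1%), with a median log2 fold change of 0.07, and in long-term knockdown 9 were called higher and 6 lower (36.6%), with a median of 0.01. Over all tested genes 10.3% were called short-term and 29.5% long-term. As for the targets, the choice of the list limits this comparison. Among 12 genes of the PI3K, AKT and SGK kinases, SGK1, which phosphorylates FOXO3, was higher at both times (0.96, adjusted p = 4.24e-05, and 0.95, adjusted p = 6.02e-06, in edgeR's quasi-likelihood test) with no overlap. RICTOR, an mTORC2 subunit, was higher long-term (0.74, adjusted p = 6.46e-04 in edgeR's quasi-likelihood test), and its short-term call (0.63) was lost without short-term nontarget replicate 1 (0.58) or 2 (0.59). SGK2 was called lower short-term (−0.71, a call lost without short-term nontarget replicate 3 or short-term knockdown replicate 1, at −0.68 and −0.69) and higher long-term (0.80), with an interaction of 1.51 (adjusted p = 3.44e-04 in edgeR's quasi-likelihood test). PHLPP1, a phosphatase that opposes AKT, was lower long-term (−0.53, adjusted p = 0.00373 in edgeR's quasi-likelihood test), with no overlap between knockdown and nontarget libraries.

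Among 8 genes for 14-3-3 proteins and nuclear export, which hold FOXO proteins outside the nucleus, 1 was called short-term and 5 long-term (12.5% and 62.5%, beside 10.3% and 29.5% of all tested genes). YWHAQ was higher at both times (0.48, adjusted p = 0.00319, and 0.73, adjusted p = 1.75e-05, in edgeR's quasi-likelihood test). Long-term, YWHAE (0.70) and the exportin gene XPO1 (0.55) were higher and SFN (−1.01) and YWHAZ (−0.42) lower, each with no overlap between the 3 knockdown and 3 nontarget libraries. Of 8 other kinases of FOXO proteins, MAPK9 was higher at both times (0.59 and 0.45) and MAPK8 lower long-term (−0.52). Of 8 genes for acetylation, methylation and ubiquitin, SKP2, the F-box protein that targets FOXO1 for degradation, was higher at both times (0.54 and 0.51), and SIRT1 (−0.35) and SIRT2 (−0.45) were called lower long-term. The SIRT1 call was lost with no filter on low counts (−0.35), with the 2 groups alone (−0.35) and without long-term nontarget replicate 1 (−0.27) or long-term knockdown replicate 3 (−0.31). That of SIRT2 was lost in DESeq2 (−0.46), with no filter on low counts (−0.45), with the 2 groups alone (−0.46) and without short-term knockdown replicate 1 (−0.45), long-term nontarget replicate 2 (−0.45) or 3 (−0.35) or any long-term knockdown replicate (−0.45, −0.45 and −0.47).

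Partners and targets of FOXN3 were examined beside its fall. The 8 listed genes were tested, among them SNW1, MEN1 and SIN3A as partners and PIM2 and E2F5 as genes that FOXN3 represses. In long-term knockdown edgeR and DESeq2 each called 0 of the 8, and 3 passed at an unadjusted p below 0.05, where edgeR called 29.5% of all tested genes. In short-term knockdown 1 was called, E2F5, as lower (−0.55, adjusted p = 0.0362 in edgeR's quasi-likelihood test), beside 10.3% of all tested genes. That call was lost without any 1 of the 6 short-term libraries, with values of −0.63 to −0.51. For PIM2 the log2 fold change was −0.00081 short-term and −0.01 long-term. The median of the 2 repressed targets, PIM2 and E2F5, was −0.28 short-term and −0.22 long-term, and 0 of the 2 were called long-term.

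For each of the 5 genes, the 3 genes with the most similar pattern were sought among 10190 tested genes with a mean of at least 50 counts, by the root mean square (RMS) difference of centered log2 CPM over the 12 libraries. For FOXO3 these were GLIPR2 (0.118), TUBG1 (0.123) and MAN1A1 (0.133), against an RMS of 0.437 for FOXO3 around its own mean. For FOXO4 they were PUM2 (0.105), MPV17 (0.114) and CCSAP (0.124), against 0.277. For FOXN2 they were CLINT1 (0.103), WDR43 (0.106) and ASXL2 (0.112), against 0.243. FOXN2 and 4 of these genes, PUM2, MPV17, WDR43 and ASXL2, lie on chromosome 2. The nearest genes to FOXN3, NT5E (0.254), SERINC2 (0.268) and NOV (0.281), were less close, on a wider RMS of 1.05 for FOXN3. For FOXO1, at its low counts, CCDC137 (0.172), TMED9 (0.175) and EPB41L4A-AS1 (0.176) came nearest, against 0.326.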

How the data were processed

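RNA was extracted with an RNeasy kit and polyA libraries were made with a TruSeq kit. Reads were trimmed with fastp, mapped with STAR in 2-pass mode to GRCh38 and counted per gene with featureCounts by the authors, who deposited raw counts; versions and strand setting are not given in the sources used here. The deposited table also holds a score per gene, the count divided by 1 DESeq2 factor per library. Of these scores, 100% equaled the count over 1 factor per library, within 1 or 1 per mille. In a separate check, the raw counts of the per-library files differed from the table in 0 values.

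Gene IDs were matched without version to GENCODE 29 (58022 of 58288 matched). In R 4.3.3, edgeR 4.0.16 was run on all 12 libraries with filterByExpr, TMM factors, 1 term per group, a prior count of 0.125 and the robust quasi-likelihood test, after tests on simulated data; p-values were adjusted by Benjamini-Hochberg over 13959 genes, which held 99.8% of counts, and the biological coefficient of variation was 12.0%. CPM use TMM library sizes. Intervals are 95% from the fit and cover the spread between these libraries; replicates are labelled as biological, but separate cultures are not described.

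Named genes were the 5 forkhead genes, FLCN, other FOXO and FOXN genes by counts, other forkhead genes called at a log2 fold change of at least 1, called list genes with the smallest adjusted p for each role, and the 3 genes of most similar pattern. The genes and lists were chosen with earlier results of these data known. Alternatives tried were DESeq2 1.42.0, other factors, filters and call rules, 2-group fits, a replicate block, FOXO3 with FOXO3B, and leaving out each library. Figures were drawn with matplotlib 3.10.9.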

Additional observations from a re-analysis of the deposited data

Results flagged for a closer look

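The effect of FLCN knockdown on FOXN3 differed between the culture times by −1.84 on the log2 scale (long-term minus short-term, adjusted p = 2.50e-06 in edgeR's quasi-likelihood test): the log2 fold change was 0.29 short-term and −1.55 long-term.

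The same test of the difference passed for 16 other genes among the listed FOXO genes and the genes with patterns like those of the 5; with FOXN3 these are 17 of the 59 tested genes that the rule for named genes takes. List genes entered that rule because they were called in a knockdown comparison, so the share cannot be set against the 13.4% called over all tested genes. More negative long-term were CCND1 (−5.99), ERBB3 (−3.71), NOV (−1.82), CDKN1A (−1.54), SERINC2 (−1.36), PINK1 (−1.34), SFN (−1.28), NT5E (−1.13), MAPK8 (−0.80), PHLPP1 (−0.64), SOD2 (−0.44) and MAP1LC3B (−0.41). More positive long-term were SGK2 (1.51), PPARGC1A (0.74), YWHAE (0.63) and PUM2 (0.48). For PPARGC1A, SOD2, MAP1LC3B, PUM2 and PHLPP1 the call was lost without 9, 10, 9, 7 and 2 of the 12 libraries, each left out alone. It was also lost with no filter on low counts for SOD2, MAP1LC3B and PUM2, and, for PPARGC1A, when genes below 5 CPM on average were left out. NT5E, SERINC2, NOV and PUM2 were named for a pattern like that of FOXN3 or FOXO4, so their direction follows from the choice.

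Outside those lists, the test also passed for AL138478.1, which lies opposite FOXN3 exons (adjusted p = 0.00267 in edgeR's quasi-likelihood test; 2 counts in long-term knockdown, so no fold is given), and for the cell type markers LUM (3.70), MME (0.69), PDGFRB (−2.64), KRT7 (−2.08), EPCAM (−1.11), PAX8 (−0.94) and KRT18 (−0.54). The KRT18 call was lost without short-term nontarget replicate 2 or 3, short-term knockdown replicate 3, any long-term nontarget library or long-term knockdown replicate 1 or 2 (−0.56 to −0.44).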

How the results depend on the processing

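The FOXO3 log2 fold change ran from −0.86 to −0.78 short-term and from −1.02 to −0.85 long-term, FOXN3 from −1.65 to −1.45 long-term and from −1.94 to −1.74 in the interaction, and FOXN2 from 0.48 to 0.68 long-term, all called in each setting other than, for FOXO3 and FOXN2, the 2.5-fold limit. FOXO4 in long-term knockdown ran from 0.52 to 0.79 with 1 library left out, and lost its call without long-term nontarget replicate 2 (adjusted p = 0.0545 in edgeR's quasi-likelihood test, range 0.00329 to 0.0545). FOXO1 has no value with a mean of at least 5 CPM required, nor in some fits of 2 groups.

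Counts moved most with the 2.5-fold limit, by its construction: 250, 922, 262, 873 and 759 genes in short-term knockdown, long-term knockdown, nontarget culture, knockdown culture and the interaction; 0, 1 and 0 of the 5 genes in the first 3; 1 and 5 forkhead genes in the knockdown comparisons; 2, 5 and 4 FOXO targets and 0, 0 and 1 FOXO regulators in the knockdown comparisons and the interaction. For the 0 of 5, DESeq2 and an unadjusted p below 0.05 with the same limit also gave 0, as they did for the regulators. The replicate block raised short-term knockdown to 2359, nontarget culture to 1786 and the interaction to 2879 genes; the shares of all genes in the report are without this block. Same-number libraries of different groups correlated across genes, after group means were removed, from −0.12 to 0.53 (above 0.1 in 11 of 18 pairs), and 10 of 12 libraries were closest to their own number. The labels do not say what the numbers share. DESeq2 called 2 forkhead genes short-term and the filter at 5 CPM 1. Causes were not tested.

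With 1 library left out, short-term knockdown gave 874 to 1688 genes (874 and 906 without short-term nontarget replicates 1 and 2), nontarget culture 581 to 1288 (581 and 645 without the same libraries), short-term forkhead genes 1 to 4, and FOXO targets in the interaction 4 to 7, from 7 (4 without short-term nontarget replicate 1 or 3, short-term knockdown replicate 1 or 2 or long-term nontarget replicate 2). Values near 0 changed sign without a call: FOXO3 (−0.015 to 0.057), FOXO4 (−0.17 to 0.084, and −0.0011 with the 2 groups alone) and FOXN2 (−0.18 to 0.0075) in nontarget culture, and FOXO1 in the interaction (−0.29 to 0.42). Of 94 calls for named genes other than the 5, 65 held in every setting, 28 were lost without at least 1 library and 16 in another setting. FOXO1 and FOXO6 have few counts.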
